A study of Mus musculus with 2 samples.

Results

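A photoreceptor must switch off its response to light before it can signal the next change, and 8 mouse genes of that shut-off machinery were followed here through rods, cones and other retinal cells: Sag, Arr3, Grk1, Rcvrn, Rgs9, Rgs9bp, Gnb5 and Pdc. They were found by gene symbol, and each of the 8 matched a single row among the 32285 genes of both deposited matrices. The retinas came from mice kept under short-wavelength light or under full-spectrum white light for 2 weeks from postnatal day 14, and were digested and strained as whole tissue before droplet single-cell RNA sequencing. Each light condition was represented by 1 library, and the strain, sex and number of animals behind a library are not given in the sources used here. No p-value can therefore be given for any difference between the lights, and every interval below is a 95% interval that covers counting error only. Levels are unique molecular identifiers (UMIs, counts of captured mRNA molecules) per 1000000 UMIs of a cell class, abbreviated CPM.

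Shut-off proceeds along several arms. The kinase encoded by Grk1 phosphorylates photoexcited visual pigment, an arrestin then caps the pigment, and recoverin, the calcium sensor encoded by Rcvrn, restrains the kinase while calcium is high. Sag encodes the rod arrestin and Arr3 the cone arrestin, and mouse cones are known to make both. Mice lack the Grk7 gene that other mammals use in cones, so Grk1 serves both photoreceptors. Transducin, the G protein that carries the signal, is switched off by a complex that speeds up its GTP hydrolysis. Rgs9 encodes the catalytic subunit of that complex, Gnb5 its obligate beta subunit, and Rgs9bp the membrane anchor that holds it at the outer segment. Phosducin, encoded by Pdc, binds the beta and gamma subunits of transducin and is abundant in photoreceptors.

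The 8 genes lie at dispersed positions of mm10 (GENCODE annotation, whole gene spans). The arrestin genes are Sag at chr1:87803680-87845158 and Arr3 at chrX:100605497-100618493, and the kinase arm is Grk1 at chr8:13405081-13421951 and Rcvrn at chr11:67695326-67703333, all on the plus strand. Rgs9 lies at chr11:109225355-109298129 and Rgs9bp at chr7:35578993-35585582, both on the minus strand, while Gnb5 at chr9:75306288-75345876 and Pdc at chr1:150319417-150333906 are on the plus strand. Rcvrn and Gnb5 overlap annotated genes of the opposite strand only, while Pdc overlaps such a gene and also Gm37764 on its own strand. The effect of these overlaps on the counts was not tested. The annotated spans of the 8 genes ran between 6.59 kb for Rgs9bp and 72.8 kb for Rgs9. Promoter sequences of 300 bases, 250 before and 50 after the start, were at hand for 6 of the 8 genes (RefSeq, GRCm38.p6), and not for Rcvrn or Rgs9bp. The arrestins are shown because Arr3 separates cones from rods and Sag does not, and Gnb5 because it was also read outside photoreceptors. Capitals mark TAATC or its reverse complement GATTA, the core bound by homeodomain factors of the CRX and OTX type.
Sag, chr1:87803430-87803729, plus strand: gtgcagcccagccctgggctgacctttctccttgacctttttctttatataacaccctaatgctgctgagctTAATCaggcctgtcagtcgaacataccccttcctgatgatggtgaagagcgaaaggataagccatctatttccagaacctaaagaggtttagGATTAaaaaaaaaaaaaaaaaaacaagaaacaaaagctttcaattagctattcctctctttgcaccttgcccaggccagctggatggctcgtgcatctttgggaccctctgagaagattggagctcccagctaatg
Arr3, chrX:100605247-100605546, plus strand: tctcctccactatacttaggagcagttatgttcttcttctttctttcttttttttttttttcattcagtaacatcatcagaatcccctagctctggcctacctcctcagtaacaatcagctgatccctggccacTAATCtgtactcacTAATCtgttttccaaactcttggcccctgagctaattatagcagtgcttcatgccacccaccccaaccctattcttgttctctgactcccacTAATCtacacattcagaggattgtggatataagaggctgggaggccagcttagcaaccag
Gnb5, chr9:75306038-75306337, plus strand: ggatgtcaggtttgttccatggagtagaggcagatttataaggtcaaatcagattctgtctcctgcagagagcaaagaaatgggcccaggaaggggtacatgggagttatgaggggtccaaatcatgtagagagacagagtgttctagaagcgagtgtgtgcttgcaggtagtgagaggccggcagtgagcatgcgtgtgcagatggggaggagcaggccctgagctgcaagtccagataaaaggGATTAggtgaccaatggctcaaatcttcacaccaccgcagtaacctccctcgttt
The Arr3 promoter held 3 such matches over both strands, Sag held 2, Gnb5 and Rgs9 held 1 each, and Grk1 and Pdc held none. Of 32851 promoters of this length, 22.0% held at least 1 match and 0.658% held 3 or more. TGCTGA or TCAGCA, a half-site of the NRL and MAF type that can share letters with GATTA, was found once each in Sag, Grk1 and Rgs9, and 19.5% of all promoters held it. These matches describe letters in a window and not bound sites.

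Cells were gated by marker UMIs, with none of the 8 genes in any gate, and Gnat1 (rod transducin) and Gnat2 (cone transducin) were held out of the gates as yardsticks of rod and cone RNA. The gates gave 415 cones in the short-wavelength library and 136 in the white-light library, with a median of 6476 and 6861 UMIs per cell. Rods numbered 14953 under short-wavelength light and 5009 under white light, with a median of 2401 and 2800 UMIs. Smaller classes were rod bipolar cells (140 short-wavelength, 44 white-light), Müller glia (85 and 35) and microglia (41 and 18). In cones all 8 cone markers were detected, summing to 31684 CPM (short-wavelength) and 32324 CPM (white light), against 171 and 159 CPM in rods. The 7 rod markers summed to 15169 and 15327 CPM in rods, yet also to 7955 and 8033 CPM in cones and to 1594 and 2667 CPM in microglia, so rod markers were read in every class. The kept barcodes included 26 sequences found in both libraries.

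The cone arrestin gene set the photoreceptor types apart, and the rod arrestin gene did not. Arr3 stood at 7780.3 CPM in cones against 58.0 CPM in rods under short-wavelength light, a ratio of 134 (interval 129 to 140). Under white light it stood at 7369.6 CPM in cones and 46.3 CPM in rods, a ratio of 159 (148 to 171). Arr3 was the only member more than 2-fold higher in cones than in rods, in both libraries. Among all genes with at least 50 UMIs, 10.6% were that much higher in short-wavelength and 9.25% in white-light cones. At a matched depth of 1500 UMIs per cell, Arr3 was read in 98.7% of cones in the short-wavelength library and 99.2% in the white-light library. The same depth gave 8.54% and 7.25% of rods, and 4.23% of short-wavelength Müller glia. Without thinning these Arr3 shares were 99.5% and 98.5% of cones, 15.2% and 14.0% of rods, and 14.1% of Müller glia, whose median depth was 5301 UMIs.

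Sag was high in both photoreceptors. It stood at 5692 CPM in cones and 7837 CPM in rods of the short-wavelength library, a ratio of 0.726 (0.715 to 0.738). In the white-light library Sag stood at 6221 CPM in cones and 8176 CPM in rods, a ratio of 0.761 (0.741 to 0.781). The Gnat1 yardstick, by comparison, was at 0.264 of its rod level in cones of both libraries. Sag was read in 99.7% of short-wavelength cones at matched depth and in all 121 white-light cones deep enough to be thinned.

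**Figure D1:**
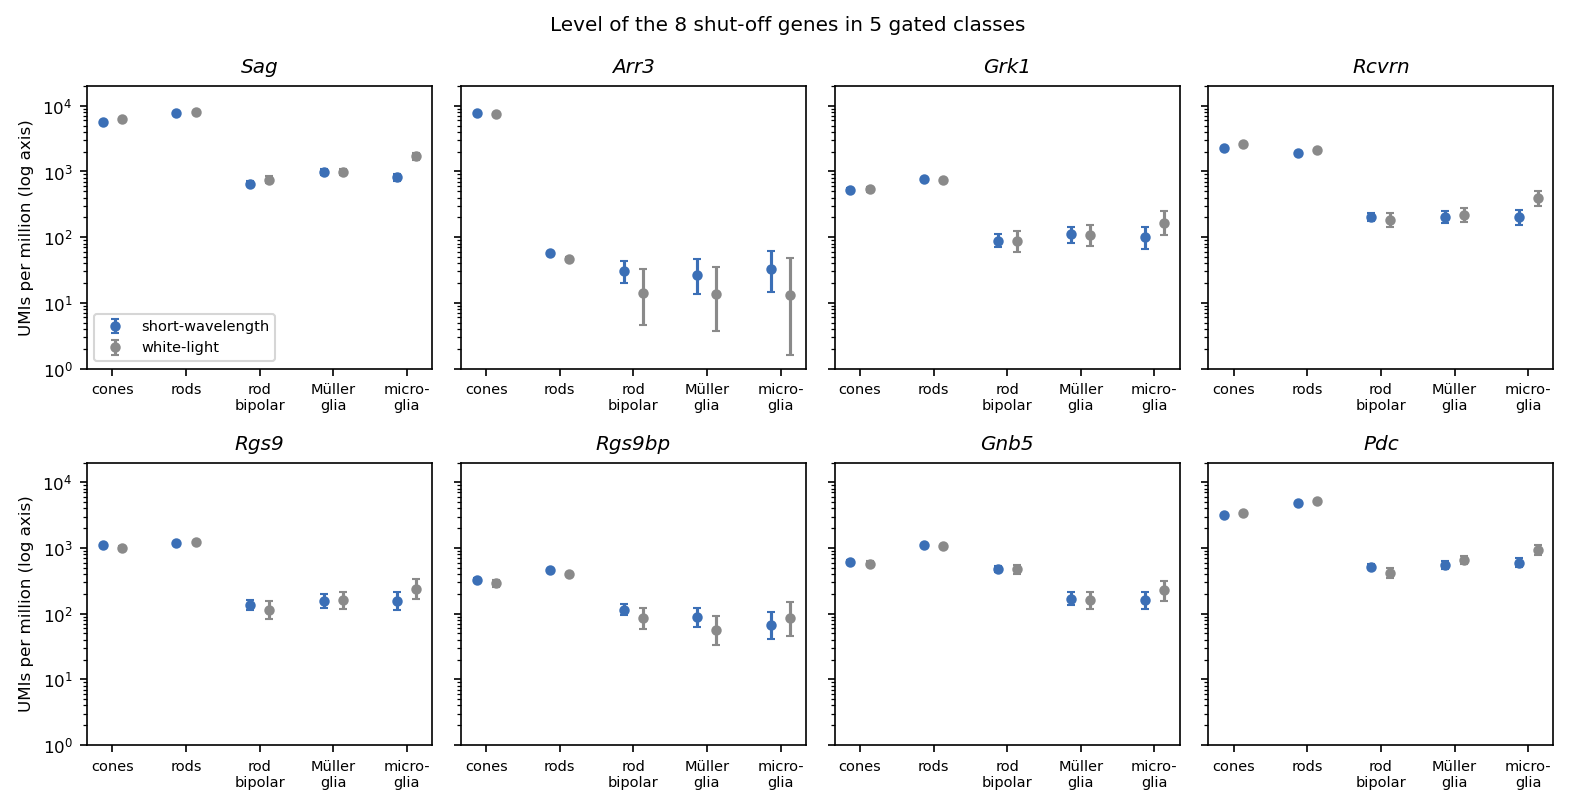
Levels of the 8 genes in CPM (log axis) in cones, rods, rod bipolar cells, Müller glia and microglia, by library. Points are class sums and bars 95% Poisson intervals; Arr3 was at 7780.3 and 7369.6 CPM in cones against 58.0 and 46.3 CPM in rods, and Gnb5 was at 476 and 471 CPM in rod bipolar cells.

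Nearly every cone droplet held both arrestin mRNAs. At least 2 UMIs of Arr3 and 2 of Sag were counted in 403 of 415 short-wavelength cones (97.1%) and in 130 of 136 white-light cones (95.6%), against 1.97% and 1.84% of rods. These Sag counts include rod RNA, which is set against the level in cones further on. Nor were these droplets matched for depth, at a median of 6476 and 6861 UMIs per cone against 2401 and 2800 per rod. Of all arrestin UMIs, Arr3 made up 57.7% in short-wavelength cones (57.2 to 58.3) and 54.2% in white-light cones (53.4 to 55.1), against 0.734% and 0.563% in rods. These shares compare the same pair of genes between cells, since capture of their mRNA ends may differ and neither count is scaled by length. The share varied widely among single cones with at least 10 arrestin UMIs. Its 10th percentile, median and 90th percentile were 23.0%, 55.1% and 78.4% over 400 short-wavelength cones, and 19.4%, 51.7% and 72.8% over 131 white-light cones.

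Arr3 and Sag differed in level between cones grouped by opsin. Cones with at least 10 opsin UMIs were called S-dominant where Opn1sw, the S-opsin gene, gave over 90% of the opsin UMIs, and M-dominant where it gave under 10%, with Opn1mw the M-opsin gene. In cones of the short-wavelength library, Arr3 stood at 4408 CPM in 78 S-dominant cones, 7056 CPM in 191 cones with both opsins and 10596 CPM in 129 M-dominant cones, and Sag at 6513, 6244 and 4483 CPM in the same order. The white-light library gave 4347, 7149 and 9429 CPM for Arr3 and 7209, 6563 and 5297 CPM for Sag, over 35, 50 and 40 cones. Gnat1 stood beside them at 824, 926 and 784 CPM under short-wavelength light and at 1101, 993 and 749 CPM under white light, and its part in the Sag values was not tested. The depth of the cones moved with opsin type too. The median UMIs per S-dominant, both-opsin and M-dominant cone were 5401, 7057 and 6787 in the short-wavelength library and 3271, 8066 and 8488.5 in the white-light library. Across 5 parts of cones by total UMIs, Arr3 in the deepest part was 1.55 and 2.13 times its level in the shallowest part. The shallowest part held 7.37% and 7.93% mitochondrial UMIs, against 1.87% and 2.07% in the deepest. Arr3 did not rise steadily with depth, however. From shallow to deep it stood at 4285, 8479, 9535, 7928 and 6645 CPM in short-wavelength cones. White-light cones gave 3246, 7435, 8812, 8575 and 6919 CPM. The part of depth in the opsin differences was not tested. Among the other members, Grk1 stood at 553, 544 and 506 CPM under short-wavelength light and at 465, 592 and 519 CPM under white light. Rgs9 stood at 1036, 1157 and 1032 CPM under short-wavelength light and at 849, 1125 and 982 CPM under white light. The order over the opsin types thus differed between libraries for Grk1.

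**Figure D2:**
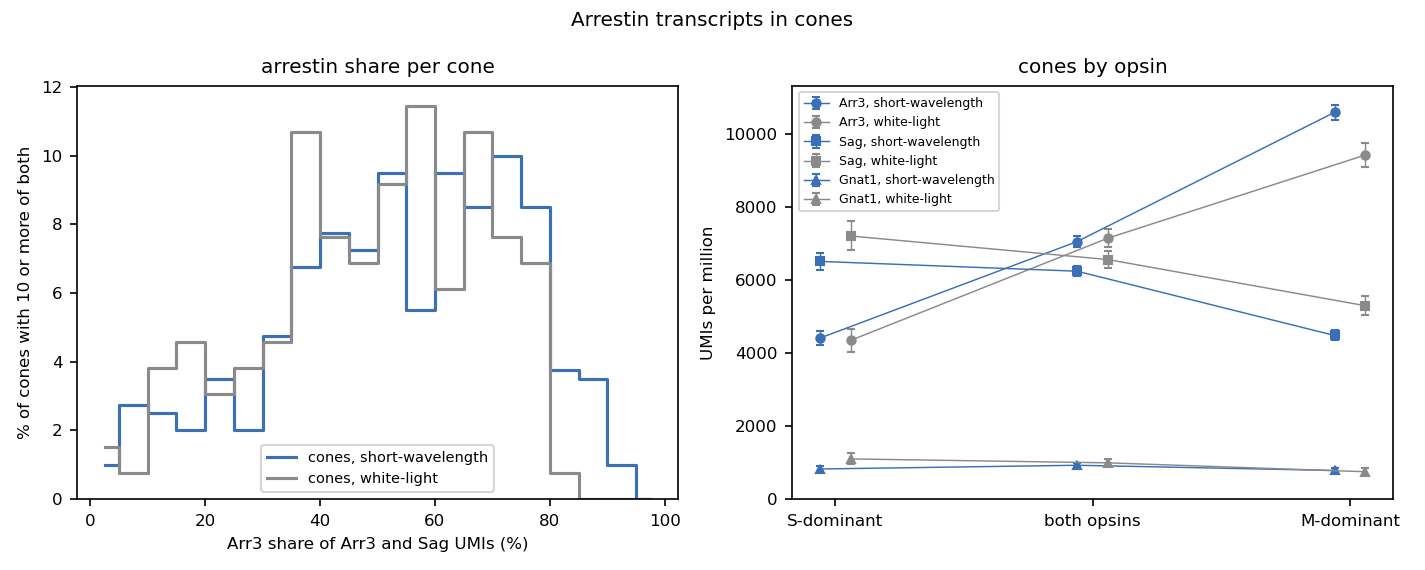
Left, share of Arr3 among Arr3 and Sag UMIs (%) in single cones with at least 10 UMIs of the pair, as % of cones in each library. Right, Arr3, Sag and Gnat1 in CPM (95% Poisson intervals) by opsin type; Arr3 was at 4408 CPM in S-dominant and 10596 CPM in M-dominant cones of the short-wavelength library, and Sag at 6513 and 4483 CPM.

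The kinase and its calcium sensor were both present in both photoreceptors. Grk1 stood at 531 CPM in cones and 768 CPM in rods under short-wavelength light, and at 540.1 CPM in cones and 747 CPM in rods under white light. Its ratio of cones to rods was 0.692 (0.656 to 0.729) and 0.723 (0.661 to 0.790). Rcvrn leaned the other way, and with Arr3 it was the only member whose level was higher in cones. It stood at 2272 CPM in cones and 1879.6 CPM in rods of the short-wavelength library, a ratio of 1.21 (1.18 to 1.24), and at 2619.8 CPM in cones and 2089.9 CPM in rods of the white-light library, a ratio of 1.254 (1.20 to 1.31).

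The 3 genes of the GTPase-accelerating complex differed in how far cones fell below rods. Rgs9, the catalytic subunit, came closest to parity, with 1093 CPM in cones and 1198 CPM in rods under short-wavelength light (ratio 0.912, 0.879 to 0.947) and 1015 CPM in cones and 1239 CPM in rods under white light (0.819, 0.768 to 0.874). The anchor Rgs9bp stood at 330.3 CPM in cones and 457 CPM in rods of the short-wavelength library, and at 292 CPM in cones and 400.5 CPM in rods of the white-light library, with ratios of 0.722 and 0.728. Gnb5 had the lowest ratios of the 8 genes in both libraries. It stood at 619.6 CPM in cones and 1113 CPM in rods under short-wavelength light (0.557, 0.530 to 0.585), and at 579 CPM in cones and 1087 CPM in rods under white light (0.533, 0.489 to 0.580). Pdc, the phosducin gene, stood at 3217 CPM in cones and 4896 CPM in rods of the short-wavelength library, and at 3424 CPM in cones and 5132 CPM in rods of the white-light library, with ratios of 0.657 and 0.667. No member was more than 2-fold lower in cones, against 11.2% of all genes in the short-wavelength and 13.3% in the white-light library, although Gnb5 passed that limit in the white-light library under a pair of alternatives given in the closing section.

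Because rod markers were read in cone droplets too, each level in cones was set against what rod RNA would give. The yardstick was Gnat1: its CPM in cones, multiplied by the ratio of a member to Gnat1 in rods. By this measure rod RNA would give 2070.5 CPM of Sag in short-wavelength cones, and 2.75 times as much was counted (2.63 to 2.87), with 2.88 times in white-light cones (2.68 to 3.09). Rcvrn was 4.58 and 4.75 times its expected level, Rgs9 3.45 and 3.10 times, Rgs9bp 2.73 and 2.76 times, Grk1 2.62 and 2.74 times, Pdc 2.49 and 2.53 times, and Gnb5 2.11 and 2.02 times, short-wavelength cones before white-light cones. Arr3 was at 508 and 603 times. All 8 intervals therefore lay above 1 in both libraries. Whether part of the Gnat1 RNA in cones is their own was not tested, and any such part would make the yardstick too high.

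A stricter count also took the member to Gnat1 ratio from the pooled non-photoreceptor classes and kept the larger expectation. Then 6 of the 8 genes, namely Sag, Arr3, Grk1, Rcvrn, Rgs9 and Pdc, were more than 2-fold above rod RNA in cones of both libraries. Of all genes tested, 5.22% met this in short-wavelength and 7.24% in white-light cones. Rgs9bp reached 1.64 and 1.95 times and Gnb5 0.913 and 0.942 times the larger expectation. Both genes exceeded rod RNA in rod bipolar cells, which are among those classes, and with rod bipolar cells left out Rgs9bp also passed in both libraries, giving 7 of 8. The count depended on the yardstick: with the summed rod gate genes in place of Gnat1, only Arr3 and Rcvrn passed, 2 of 8 in each library. In the short-wavelength library that sum includes Gngt1, at 3301 CPM in cones and 4238 CPM in rods, and Pde6g, at 2899.95 and 3337 CPM. The gate gene next highest in cones was Pde6b, at 406 CPM in cones and 1903 CPM in rods. The part of single gate genes in the lower count was not tested.

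**Figure D3:**
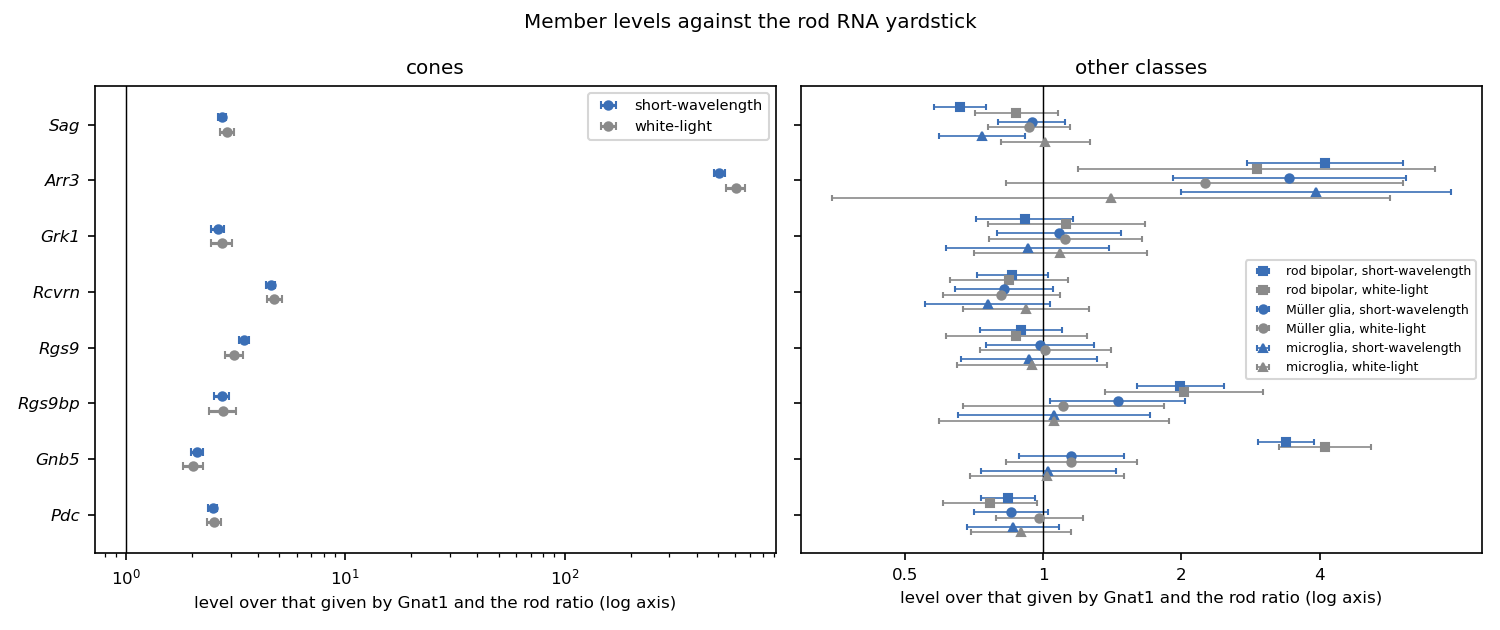
Level of each gene divided by the level that rod RNA would give, from Gnat1 and the ratio in rods (log axes), in cones (left) and in rod bipolar cells, Müller glia and microglia (right). Bars are 95% counting intervals and the line marks 1; all 8 genes lay above 1 in cones, while Gnb5 in rod bipolar cells was at 3.38 and 4.11.

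The reverse question, whether rods hold Arr3 of their own, was set against cone RNA in the same way. From Gnat2 in rods (12.9 CPM under short-wavelength and 14.9 CPM under white light), cone RNA would give 49.5 CPM of Arr3 in rods of either library. The counted 58.0 CPM was 1.17 times that in short-wavelength rods (1.07 to 1.29), and the counted 46.3 CPM was 0.935 times that in white-light rods (0.807 to 1.08). By Gnat2, Arr3 in rods was therefore close to the level of cone RNA. The interval lay above 1 in the short-wavelength library and across 1 in the white-light library. This result depends on the yardstick. The rod level over the cone level was 0.00745 and 0.00628 for Arr3, and 0.00636 and 0.00672 for Gnat2. Other cone cascade genes outside the gates lay on either side, with Slc24a2 at 0.00558 and 0.00485 and Gnb3 at 0.0383 and 0.0409.

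Outside photoreceptors most of the 8 genes followed rod RNA. Over rod bipolar cells, Müller glia and microglia of both libraries, Sag ranged between 652 and 1698 CPM, Pdc between 414 and 942 CPM, Rcvrn between 186 and 394 CPM, Rgs9 between 114 and 241 CPM, Grk1 between 88.5 and 167 CPM, and Arr3 between 13.4 and 32.2 CPM. The upper ends of these ranges, that of Arr3 excepted, were the 18 white-light microglia, in which Gnat1 was also highest of these classes, at 728 CPM. In Müller glia and microglia the ratios to the rod yardstick ran between 0.734 for Sag in short-wavelength microglia and 1.45 for Rgs9bp in short-wavelength Müller glia, Arr3 aside. Arr3 was 1.40 to 4.12 times the rod yardstick across the 3 classes, on 2 to 27 UMIs each, and Gnat2, the cone yardstick, stood above the rod ratio in the 3 short-wavelength classes too, on 2 to 19 UMIs. Apart from Arr3, the intervals in both classes crossed 1 or lay below it, except that of Rgs9bp in short-wavelength Müller glia (1.03 to 2.04).

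Gnb5 stood apart in rod bipolar cells. It was at 476 CPM in short-wavelength rod bipolar cells (432 to 524) and at 471 CPM in white-light rod bipolar cells (402 to 549), against 169 and 162 CPM in Müller glia and 161 and 227 CPM in microglia. Gnat1 in rod bipolar cells was 414 and 374 CPM, so rod RNA would give 141 and 115 CPM of Gnb5, and the counted level was 3.38 (2.94 to 3.88) and 4.11 (3.26 to 5.17) times as high. Gnb5 in Müller glia was 1.15 times the expected level in both libraries, with intervals across 1. At 1500 UMIs per cell, Gnb5 was read in 50.7% (short-wavelength) and 60.5% (white light) of rod bipolar cells, against 18.3% and 18.2% of Müller glia. Rgs9bp was also above the yardstick in rod bipolar cells, at 115 and 85.6 CPM. It was 1.99 (1.599 to 2.48) and 2.03 (1.36 to 3.01) times the expected level. So was Arr3 above it, at 4.12 (2.78 to 6.10) and 2.92 (1.19 to 7.15) times, on 27 and 5 UMIs. The catalytic subunit Rgs9 was not above the yardstick there, at 0.893 and 0.873 times, and Sag was at 0.656 (0.576 to 0.748) and 0.873 (0.708 to 1.08) times.

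In ON bipolar cells Gnb5 is known to pair with Rgs7 and Rgs11, relatives of Rgs9 that switch off the mGluR6 cascade, and with the orphan receptor Gpr179 that anchors them. All 3 partners were read in rod bipolar cells, where Gnb5 exceeded rod RNA. Rgs7 stood at 2282 and 2749 CPM in rod bipolar cells, against 234 and 306 CPM in cones and 5.12 and 6.39 CPM in rods. Gpr179 stood at 467 and 502 CPM in rod bipolar cells and under 1 CPM in rods. Rgs11 stood at 202 and 139.9 CPM in rod bipolar cells. Rgs6, another Gnb5 partner, was instead at 2419 and 2605 CPM in Müller glia, where Gnb5 stayed near the level of rod RNA. The long and short forms of the Gnb5 mRNA, which differ at the first exon, are not told apart by counts from the 3′ end.

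Among the 24 paralogs of the 8 genes that were listed, the highest in rods, in UMIs not scaled by length, was Gnb1, the beta subunit of rod transducin, at 5041 and 5577 CPM. The highest in cones was Gnb3, the beta subunit of cone transducin, at 2875 and 2823 CPM, and the highest in rod bipolar cells was Rgs7. The widely expressed arrestins Arrb1 and Arrb2 were both under 12 CPM in rods and under 6 CPM in cones, and Arrb2 was highest in microglia, at 197 and 93.6 CPM. Grk4, Grk5 and Grk6 were at most 52.1 CPM in rods. The genes whose profile over 4 classes and both libraries (8 points) lay closest to each member were drawn from 10355 genes. They were Pde6c, Pde6h and Opn1sw for Arr3, with r between 0.994 and 0.995, and the first is the catalytic subunit of cone phosphodiesterase. For Sag they were Otud7b, Podxl and Whrn, for Grk1 Otud7b, Rpgrip1 and Sgip1, for Rcvrn Pdzd2, Tulp1 and Vtn, for Rgs9 Ppm1n, Dmd and Pde6g, for Rgs9bp Rbks, Ptges2 and Cerk, for Gnb5 Osbp2, Camk2d and Pbrm1, and for Pdc Ankrd33b and Sgip1. Pde6c, Pde6h, Opn1sw and Pde6g were themselves gate genes. Over these 8 points many genes lay about as close as those named. Genes past r of 0.99 numbered 33 for Pdc, 31 for Grk1, 27 for Rgs9 and 20 for Sag. They numbered 17 for Rcvrn, 15 for Arr3, 7 for Rgs9bp and 3 for Gnb5.

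Within rods the 8 genes did not vary as a block. Over 13977 short-wavelength and 4719 white-light rods thinned to 1500 UMIs, with 976 and 290 shallower rods left out, 1 of the 28 pairs passed a Pearson r of 0.1 in each library. Of all pairs among genes with a mean of at least 0.1 UMIs, 0.422% did so in short-wavelength and 1.04% in white-light rods. That pair was Rcvrn and Pdc, with r of 0.36 under short-wavelength light and 0.48 under white light. All other pairs lay between -0.06 and 0.05 under short-wavelength light and between -0.08 and 0.09 under white light, and the median over the 28 pairs was 0.00 in both. The 3 genes of the GTPase-accelerating complex, whose proteins bind each other, had r of 0.01 for Rgs9 with Gnb5, 0.01 for Rgs9 with Rgs9bp and 0.01 for Gnb5 with Rgs9bp in short-wavelength rods. In white-light rods the values for these pairs were 0.00, 0.02 and 0.01. Grk1 and Rcvrn, kinase and inhibitor, gave -0.03 and -0.06. These correlations describe cells of 1 library each, which share its depth and its free RNA, and low counts pull r towards 0: the mean at this depth was 1.78 UMIs per short-wavelength rod for Rgs9, 1.68 for Gnb5 and 0.684 for Rgs9bp.

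Rcvrn and Pdc also varied over rods together with Gnat1. Rcvrn gave r of 0.43 and 0.54 with Gnat1, and Pdc gave 0.35 and 0.45. Among the genes ranked, those most correlated with Rcvrn were Gngt1 and Pde6g, at 0.49 and 0.48 in short-wavelength rods. Both encode small subunits of the rod cascade and are rod gate genes. Gapdh, Tma7, Gnat1 and Ndufa4 followed, a list that holds housekeeping genes and was drawn up after the values were seen. Mitochondrial, ribosomal protein, haemoglobin and predicted genes were among those left out of the ranking. With Malat1, a long non-coding RNA held in the nucleus, Rcvrn gave -0.41 and -0.55 and Pdc gave -0.36 and -0.47, while Sag gave 0.00 and -0.06. Rcvrn was also uneven from rod to rod: its variance was 1.92 and 2.39 times its mean, against a median of 1.32 and 1.48 for genes of like mean. Gnb5 (1.07 and 1.09), Rgs9 (1.11 and 1.14) and Grk1 (1.10 and 1.09) were each below the median of their like-mean genes, near the value of 1 that counting alone gives. In cones the pairs were less steady, with 7 of 28 past 0.1 in each library over 383 and 121 cells. Of all gene pairs, 5.89% passed in short-wavelength and 29.0% in white-light cones, so that the white-light count lay near the share of all pairs. Sag and Arr3 gave -0.23 in short-wavelength and -0.05 in white-light cones, and Rcvrn and Pdc gave 0.23 and -0.05.

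Dividing the rods of both libraries together into 5 parts by their Malat1 share showed how large that axis was. In short-wavelength rods Rcvrn stood at 3378, 1950.2, 1642, 1466 and 1399.9 CPM in the 5 parts, low Malat1 to high. In white-light rods the values were 3391, 1909, 1638, 1455 and 1443 CPM, so that within a part the libraries lay close together. Pdc stood at 6971, 5149, 4596, 4325 and 4059 CPM under short-wavelength light, and at 6952 and 4066 CPM in the lowest and highest parts under white light. Gnat1 stood at 5573 CPM in the lowest part and 2516 CPM in the highest part of the short-wavelength rods, and at 5474 and 2505 CPM in white-light rods.

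The other members changed less along the Malat1 axis, in either direction. Sag lay between 7730 and 7973 CPM in every part of the short-wavelength rods and between 7955 and 8294 CPM in the white-light rods. Gnb5 stood at 1159 CPM in the highest and 938 CPM in the lowest Malat1 part of short-wavelength rods, a ratio of 1.24 (1.20 to 1.27), with 1.19 (1.13 to 1.254) in white-light rods. Grk1 gave 1.08 in both libraries, and Rgs9 1.06 and 1.10. Arr3 gave 0.955 (0.839 to 1.09) in short-wavelength rods and 0.682 (0.519 to 0.888) in white-light rods, at its low level there. Rcvrn gave 0.414 and 0.425 and Pdc 0.582 and 0.585, and they were the 2 members more than 1.5-fold lower at high Malat1, against 9.81% and 11.9% of all genes. The mitochondrial share of UMIs moved along the same axis, at 0.415% in the highest and 1.97% in the lowest part of the short-wavelength rods and 0.492% and 1.73% in the white-light rods. The ribosomal share was 1.46% in the highest and 4.48% in the lowest part, and 1.53% and 4.25%. Across genes with at least 1000 UMIs, the gradient went with annotated gene span, at r of 0.64 over 3474 genes and 0.74 over 1253 genes, and Rcvrn (8.01 kb) and Pdc (14.5 kb) are short while Gnb5 (39.6 kb), Sag (41.5 kb) and Rgs9 (72.8 kb) are longer. The 8 members did not order by span, however, since Arr3 (12.997 kb) and Grk1 (16.9 kb) are about as short as Pdc. Rgs9bp, the shortest at 6.59 kb, had a ratio of 0.956 (0.913 to 1.001) in short-wavelength rods and 0.846 (0.774 to 0.923) in white-light rods. Whether the deposited counts include reads in introns is not given in the sources used here, and the part of nuclear RNA in these gradients was not tested.

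**Figure D4:**
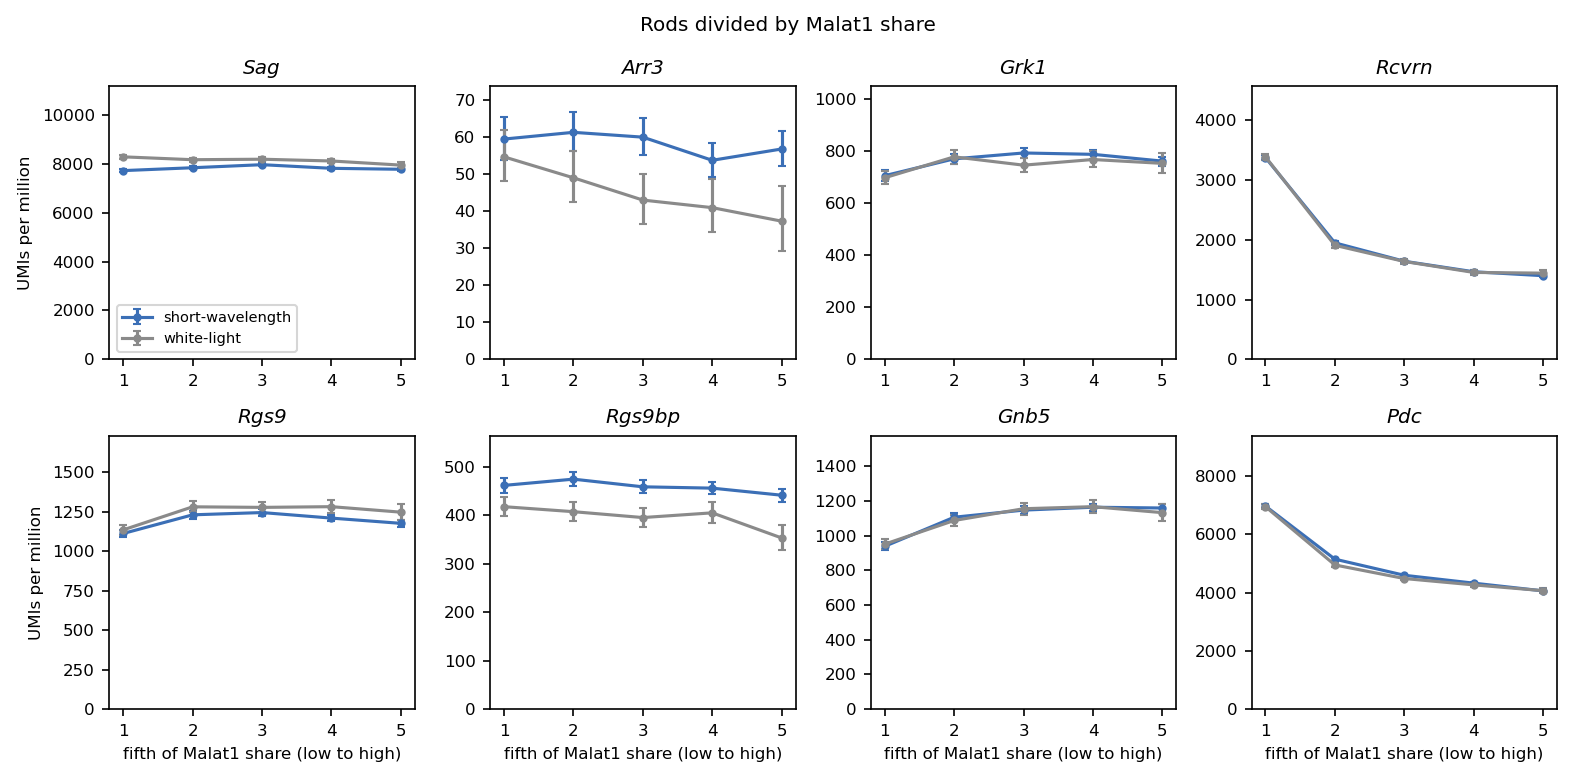
Level of each gene (CPM, 95% Poisson intervals) in rods divided into 5 parts by Malat1 share, low to high, in each library; the vertical axes start at 0 and differ between genes. Rcvrn stood at 3378 CPM in the lowest and 1399.9 CPM in the highest part of the short-wavelength rods, while Sag stayed between 7730 and 7973 CPM.

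In rods the share of these genes past the fold limit between the lights was near that of all genes. A gene was counted where short-wavelength light gave a level over 25% higher, or over 20% lower, than white light. In rods 1 of the 8 members, Arr3, passed that limit, where 13.8% of all genes did, and 4 ratios lay below and 4 above 1. The median log2 ratio of the members was -0.01 in rods and 0.03 in cones, against 0.01 and 0.02 over all genes tested. In cones none of the 8 passed it, where 26.4% of all genes did. The range over the members was 0.899 to 1.252 in rods and 0.867 to 1.13 in cones.

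Rcvrn had the lowest light ratio in both cell types, at 0.899 in rods (0.888 to 0.910) and 0.867 in cones (0.828 to 0.909). The make-up of the rods differed along the Malat1 axis, with 2567 of 14953 short-wavelength rods and 1426 of 5009 white-light rods in the lowest Malat1 part. Compared within the 5 parts, the median log2 ratio of Rcvrn was 0.00, with ratios between 0.970 and 1.02. Pdc behaved likewise, with a ratio of 0.954 over all rods and a median log2 ratio of 0.02 within the parts, and Gnb5 turned sign as well, with 1.02 over all rods and -0.00 within. Compared instead within 5 parts by total UMIs, Rcvrn was below 1 in all 5 parts of rods, between 0.766 and 0.989, with a median log2 ratio of -0.22, against -0.15 over all rods. With rods thinned to 1500 UMIs it gave -0.23. Pdc gave -0.09 within parts by total UMIs and -0.11 in thinned rods, against -0.07 over all rods, so both values depended on how rods were grouped. In cones Rcvrn was below 1 in 4 of the 5 parts, with a median log2 ratio of -0.16.

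Sag and Rgs9bp kept their direction within the parts by Malat1 share. Sag was at 0.959 (0.953 to 0.964) in rods and 0.915 in cones, and it was below 1 in all 5 parts in both cell types. Rgs9bp was at 1.13 in cones (0.989 to 1.30, across 1) and 1.14 in rods (1.11 to 1.17), and it was above 1 in all 5 parts in both. Within parts by total UMIs it was below 1 in 2 of the 5 parts of cones, at 0.747 in the lowest, and in thinned cones its log2 ratio was 0.01. Its ratios within the parts ran between 1.11 and 1.2497 in rods. Arr3 in rods, at 1.252 (1.16 to 1.36), lay at the threshold and, by Gnat2, was close to the level of cone RNA. It was below the threshold under 6 alternatives given in the closing section. Arr3 in cones was at 1.06. Rgs9 was at 0.967 (0.952 to 0.982) in rods and 1.08 (1.001 to 1.16) in cones, and Grk1 at 1.03 in rods and 0.983 in cones. With 1 library per light, none of these differences can be told apart from differences between animals, dissections or library preparations.

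Other genes of the cascade were counted in the same way. Of the 20 listed rod cascade genes, none passed that limit in rods, and in cones 4 were higher under short-wavelength light, namely Pde6a, Cngb1, Slc24a1 and Gucy2f. Of all genes, 13.8% passed in rods and 26.4% in cones. In short-wavelength cones these 4 rod genes stood at 0.239, 0.234, 0.264 and 0.234 of their rod level. In white-light cones they stood at 0.192, 0.188, 0.205 and 0.157, while Gnat1 stood at 0.264 in both libraries. The part of rod RNA in their light ratios was not tested. Of the cone cascade list, none of the 10 genes with enough UMIs in cones and none of 9 in rods passed. Among the paralogs, Gnb2 was lower under short-wavelength light in rods, 1 of 16, and Grk4, Rgs7 and Gnb2 were lower in cones, 3 of 10. In cones, 4 of 20 and 3 of 10 lay near the share of all genes. Grk4 in cones was at 0.752 (0.464 to 1.248), on 56 and 26 UMIs, and its interval crossed 1. In rods Gnb2 stood at 4.10 CPM under short-wavelength light and 6.33 CPM under white light, on 185 and 112 UMIs. Of the list of ON bipolar regulators, Gnao1 was higher and Rgs7 lower in short-wavelength cones, 2 of 2 genes with enough UMIs, and 0 of 3 passed in rods. Gnao1 was at 1.255 (0.842 to 1.92), on 115 and 32 UMIs, with an interval across 1, and Rgs7 at 0.763 (0.663 to 0.879).

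**Figure D5:**
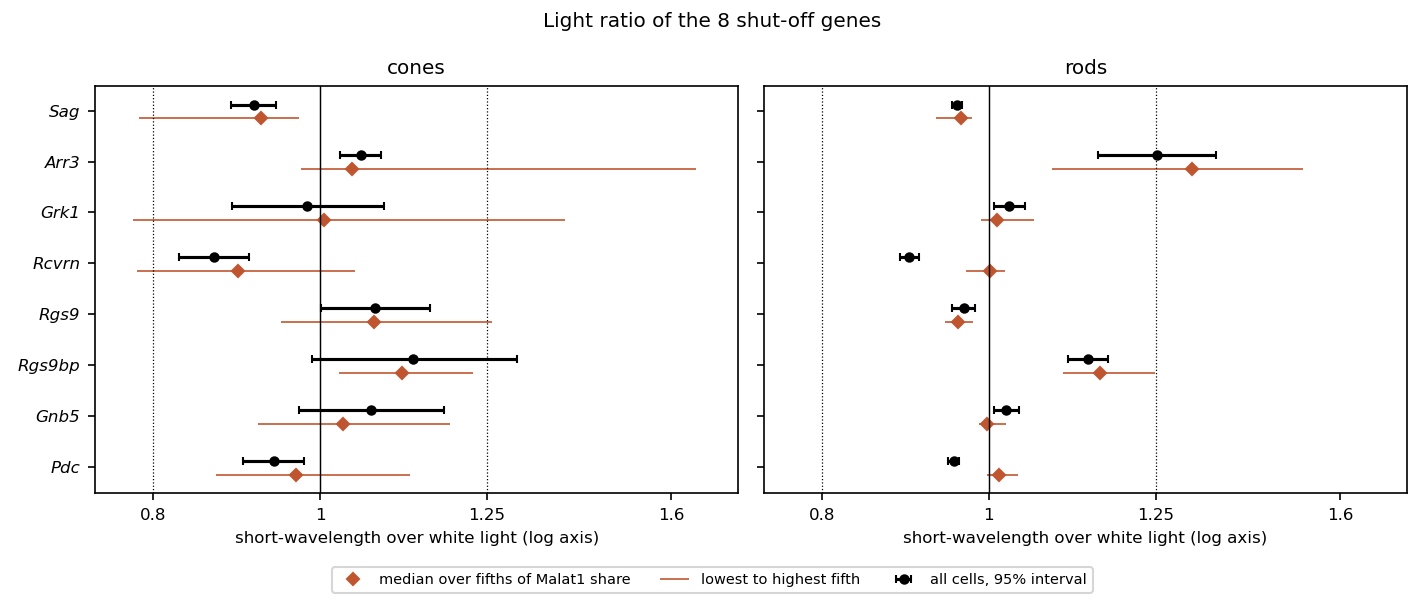
Ratio of short-wavelength to white-light level (log axis) for each gene in cones (left) and rods (right). Black points with 95% counting intervals use all cells, diamonds are medians over 5 parts of cells by Malat1 share with lines from the lowest to the highest part, and dotted lines mark 25% higher and 20% lower; Rcvrn in rods was at 0.899 over all cells and its 5 parts lay between 0.970 and 1.02.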

How the data were processed

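Whole mouse retina was run on the 10x Genomics platform, 1 library per light condition. The labels' protocols give 3′ chemistry as v3.1/v4 without saying which. The deposited files hold whole UMI counts for each gene in each barcode, not normalized. According to the file headers the authors used Cell Ranger 9.0.0, and the submitters' processing notes give mm10 as the genome build and also name Seurat and edgeR, without a role. Before filtering, the short-wavelength library held 16106 barcodes and 51681469 UMIs, and the white-light library 5707 barcodes and 20952589 UMIs. A barcode was kept if it had 300 or more genes and no more than 20% of its UMIs from mitochondrial genes, which left 16095 and 5695.

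Rods needed at least 10 marker UMIs over at least 4 of 7 rod genes, at least 0.5% of their UMIs from these, and under 10% cone UMIs among rod and cone marker UMIs. Cones needed 10 UMIs over 3 of 8 cone genes and at least 60% cone UMIs among them. Other classes needed 10 UMIs over 3 genes. Barcodes past the rod or cone UMI limit and that of a non-photoreceptor class were treated as mixed and left out. So were those past both the rod and cone UMI limits with a cone share between 10% and 60%. This is how doublets were handled, and removal by Scrublet score (scanpy 1.11.5) was an alternative. A barcode past the limits of more than 1 non-photoreceptor class only was kept in the class with the most marker UMIs. UMIs were summed per class and library. Levels carry exact Poisson intervals, ratios exact conditional binomial intervals, shares exact Clopper-Pearson intervals, and ratios to the yardsticks intervals on the log scale, all at 95% and for counting error only. With 1 library per group and cells that are not replicates, no p-value was computed. Called means past 2-fold between cones and rods or above rod RNA, over 25% higher or 20% lower between lights, past 1.5-fold along the Malat1 axis, or past r of 0.1. Shares of all genes used genes with at least 50 UMIs. Correlations and matched shares used cells thinned to 1500 UMIs. Rods and cones were each divided into 5 equal parts by Malat1 share over both libraries together.

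The 8 genes, the gene lists and the markers were chosen with earlier results of these data known. All 8 genes are given. Other genes were named by a rule, the 3 with the most similar class profile by Pearson r of log2(CPM + 5) and the most abundant listed paralogs, and a gene close to Pdc is not reported here; genes correlated with Rcvrn were added after the values were seen. Calculations used Python 3.11.15, numpy 2.4.6, scipy 1.17.1, and edgeR 4.0.16 in R 4.3.3 for TMM scaling, and were tested on simulated data.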

Additional observations from a re-analysis of the deposited data

Results flagged for a closer look

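Rgs9 differed in direction between the photoreceptors under the same contrast of lights: its short-wavelength to white-light ratio was 1.08 in cones and 0.967 in rods. Within parts of total UMIs the median ratio in rods was 1.003. With 1 library per light the difference between these ratios was not tested.

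Barcodes outside every class also carried the 8 genes. Summed over the 8 genes, mixed barcodes held 14796 CPM in the short-wavelength library and 17655 CPM in the white-light library. Barcodes that passed no gate held 14724 CPM and 17944 CPM. Arr3 stood at 1397 and 842 CPM in the mixed barcodes, and at 163 and 294 CPM in the ungated ones.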

How the results depend on the processing

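Directions held under most settings. Of the alternative values of single genes and pairs, 352 stayed within their counting error and 106 moved beyond it. None turned the sign of a value past its limit, a count that leaves out values inside their limits. Some light ratios inside the limit did turn. Beside the turns within parts by Malat1 share given above, the light ratio of Rgs9 in rods turned above 1 within parts of total UMIs, and that of Grk1 in cones turned above 1 under 4 alternatives, with log2 ratios between -0.04 and 0.04. The count of members over 25% higher or 20% lower between the lights in rods was 1, and it was 0 with a stricter gate, with the gate without Pde6g and Opn1sw, with cells of at least 1500 UMIs, with cells thinned to 1500 UMIs, with median-of-ratios scaling and within parts of total UMIs. In cones that count was 1 within parts of total UMIs, where Rgs9 reached 1.29. The median log2 light ratio of the members in rods was 0.0269 with TMM scaling and 0.0225 within parts of total UMIs. With the summed rod gate genes as yardstick the count of members above rod RNA in cones was 2 in each library. Gnb5 was more than 2-fold lower in white-light cones, making that count 1, with cells thinned to 1500 UMIs and with the mean over cells. The count of pairs past r of 0.1 in white-light rods was 2 with cells thinned to 2500 UMIs, with the stricter gate, with the gate without Pde6g and Opn1sw and with doublets removed. With no minimum of UMIs, 10544 genes in rods and 9145 in cones passed that limit, against 1799 and 2219. The cause of these shifts was not tested. Leaving rod bipolar cells out of the other classes, chosen after seeing the data, gave 7 members above rod RNA in each library. No paired analysis was possible because each light condition has 1 library. Counts of 2 to 27 UMIs limit Arr3 outside photoreceptors, and 136 white-light cones limit the ratios in cones.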
